A study of Drosophila melanogaster with 36 samples.

Results

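The 10 genes described here carry or answer the 2 main lipid hormone signals of insects, juvenile hormone and ecdysone, and they were found by symbol among the 17582 named genes of the deposited count tables. Of them, 5 belong to juvenile hormone (jhamt, Jhe, Met, gce and Kr-h1) and 5 to ecdysone (shd, EcR, usp, Eip74EF and Eip75B). Their 3′ end read counts were measured in whole wild-type (WT) Drosophila melanogaster of both sexes. Exposed flies had inhaled an aerosol of CMIT/MIT, a mixture of the isothiazolinone biocides chloromethylisothiazolinone and methylisothiazolinone, at 330 mg/m3 for 1 hour, and reference flies had inhaled filtered air. The 12 groups were exposed females, air females, exposed males and air males at days 1, 2 and 7, with 3 libraries in each group and 36 in all. The labels give neither the age of the flies nor the number pooled in a library, and nothing says that replicates came from separate cultures, so p-values measure the spread between these libraries only.

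Juvenile hormone is a sesquiterpenoid made in the corpora allata, and in adult flies it promotes yolk uptake and egg maturation and acts on courtship and gut growth. It binds the paralogous receptors Met and gce, which activate Kr-h1, the standard readout of the hormone. Ecdysone is a steroid that is oxidised to its active form, 20-hydroxyecdysone, by the enzyme encoded by shd. The active steroid binds the EcR/usp receptor pair, which switches on early genes such as Eip74EF and Eip75B, and in adult females it controls passage of egg chambers through mid-oogenesis.

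By the dm6 coordinates of the BDGP6 annotation, the juvenile hormone genes lie at chr2L:16365903-16367039 (jhamt), chr2R:16119793-16122773 (Jhe), chrX:11616124-11621280 (Met), chrX:15297766-15319074 (gce) and chr2L:6082603-6096498 (Kr-h1), all on the plus strand. Of the ecdysone genes, shd lies at chr3L:14614458-14622205 on the plus strand. The minus strand holds EcR at chr2R:6087873-6169087, usp at chrX:2038798-2042311, Eip74EF at chr3L:17558672-17619325 and Eip75B at chr3L:17950953-18064696. All 10 are protein-coding. The gene model CG45075 shares 4168 exonic bases of the same strand with Kr-h1, the 3′ end included, and is listed with 0 counts in all 36 libraries, against 28416 counts for Kr-h1. Exons of usp overlap those of Actn over 265 bases of the same strand and those of CG4313 over 196 bases of the other, neither at the 3′ end of usp. Exons of gce overlap 2 antisense RNAs that held 27 and 173 counts. The strand setting of the counting is not given in the sources used here. Reads of gce and usp therefore cannot be told apart from those of genes of the other strand at these exons. By strand alone, reads at exons that Kr-h1 shares with CG45075, and usp with Actn, cannot be told apart either.

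Libraries held from 9525565 to 17182966 counts in females and from 4681333 to 15444994 in males, so that 3 counts were worth 0.175 to 0.641 CPM, a gene's count scaled to a common library total. Replicate 1 of the exposed females of day 2 and replicate 3 of the exposed males of day 2 carried RNA markers of either sex and are referred to as mixed libraries. The male-specific RNA roX1 stood at 254 CPM in the female and 209.8 CPM in the male one, above the at most 7.01 CPM of the other 17 female and below the at least 847 CPM of the other 17 male libraries. Yp1, a yolk protein gene, stood at 6206 and 6700 CPM, within the 3248 to 15752 CPM of the other female libraries and above the at most 176 CPM of the other male ones. The fitted day 2 effects on the members are therefore also given without these libraries. CPM within a sex were normalised by the trimmed mean of M values (TMM) over the 18 libraries of that sex.

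None of the 10 genes passed the threshold (adjusted p below 0.05, edgeR quasi-likelihood test, Benjamini-Hochberg over all genes tested) between exposed and air flies on any day in either sex. This covers 57 gene-by-comparison tests, since shd was too low to be tested in females. In females, 0 of 9 passed on day 1, where 0.263% of all genes did, 0 of 9 on day 2 (0.455% of all genes) and 0 of 9 on day 7 (0.0101% of all genes). In males, 0 of 10 passed on each day and 0% of all genes did. Without the mixed libraries 0 of 9 in females and 0 of 10 in males passed on day 2 (0.563% and 0% of all genes). At an unadjusted p below 0.05 the counts in females were 3 of 9 on day 1 (12.7% of all genes), 2 of 9 on day 2 (9.52%) and 1 of 9 on day 7 (3.28%). The same counts in males were 0 of 10 on day 1 (3.17%), 2 of 10 on day 2 (21.8%) and 0 of 10 on day 7 (0.932%). At over 1.5-fold with an unadjusted p below 0.05, the threshold of the series text, the counts were 2, 1 and 0 of 9 in females of days 1, 2 and 7 (9.63%, 7.09% and 2.7% of all genes), and 0, 2 and 0 of 10 in males (2.9%, 21.4% and 0.925%). DESeq2 called 2 of the genes, gce and Kr-h1, in males of day 2, where it called 6.72% of all genes, and 0 in the other 5 comparisons (2.76%, 1.25% and 0.101% of all genes in females of days 1, 2 and 7, and 0% in males of days 1 and 7). Exposed and air libraries did not overlap for 3 of 9 genes on each day in females (16.8%, 12.5% and 17.3% of all genes on days 1, 2 and 7). In males they did not overlap for 0, 2 and 1 of 10 genes on days 1, 2 and 7 (13.3%, 11.4% and 8.6% of all genes).

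**Figure D1:**
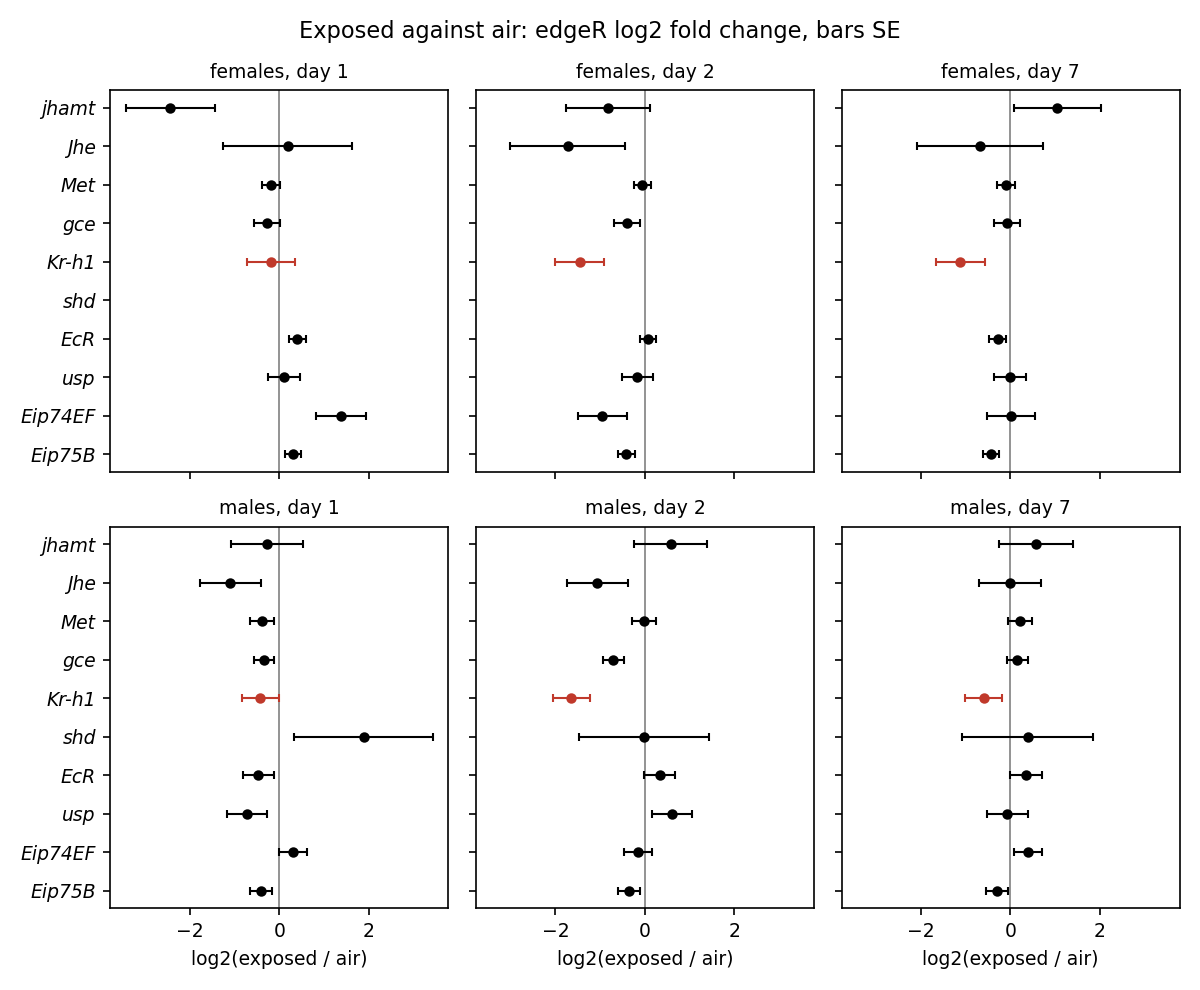
The log2 fold change of exposed over air flies, fitted by edgeR, is plotted for each gene on the x axis in 6 panels of sex and day, with bars of 1 SE and Kr-h1 in red. Kr-h1 lies left of 0 in all 6 panels, and the widest bars belong to the sparsely counted jhamt, Jhe and shd (shd was not tested in females).

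The genes of the enzymes that make and break down juvenile hormone were sparsely counted, most of all in females. The gene jhamt had 3 or fewer counts in 5 of 18 female and 1 of 18 male libraries, and Jhe in 7 female and 0 male libraries. jhamt encodes juvenile hormone acid methyltransferase, which carries out the methylation step of hormone synthesis in the corpora allata, and it held 674 counts in all 36 libraries. In females of day 1, jhamt had 0, 0.592 and 0.0846 CPM in exposed flies, against 1.74, 1.07 and 1.04 CPM in air flies. The groups did not overlap, but the exposed libraries rested on 9 counts together, a pooled level of 0.238 CPM (exact 95% Poisson interval 0.109 to 0.451), against 45 counts and 1.33 CPM (0.968 to 1.78) in air flies. These intervals cover counting error only. The log2 fold change was -2.43 ± 1.00 (SE; adjusted p = 0.300), and leaving out each library in turn moved it from -4.64 to -1.86. On day 2, jhamt had 0.853, 0.288 and 0.676 CPM in exposed females and 1.49, 0.467 and 1.31 CPM in air females (-0.83 on the log2 scale, and -1.14 without the mixed library). By day 7 the exposed females had the higher mean, with 1.14, 0.983 and 0.604 CPM against 0.201, 0.827 and 0.279 CPM in air females, and the groups overlapped on both days. Male libraries ranged from 0.343 to 5.32 CPM with overlap on every day (on day 2 the log2 fold change was 0.58, and 0.73 without the mixed library), and the smallest adjusted p for jhamt over the 6 comparisons was the 0.300 of females of day 1.

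Jhe encodes juvenile hormone esterase, which inactivates the hormone, and held 972 counts in all. Its mean CPM was lower in exposed flies in 4 of 6 comparisons, and its fitted log2 fold change was negative in 5 of 6, with a median of -0.87. In females of day 2, Jhe had 1.14, 0.959 and 0.773 CPM in exposed flies, against 4.66, 3.19 and 1.76 CPM in air flies. The groups did not overlap, and the log2 fold change was -1.73 ± 1.29 (SE; adjusted p = 0.726), or -1.86 (adjusted p = 0.765) without the mixed library. In males of the same day the exposed libraries had 6.47, 3.38 and 2.19 CPM and the air libraries 2.60, 14.4 and 8.30 CPM. These groups overlapped, the air libraries spread more widely, and the log2 fold change was -1.06, or -0.77 without the mixed library. Jhe had no count in 5 of the 18 female libraries and at least 1 count in all 18 male libraries.

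The receptors of juvenile hormone were measured with far more counts. Met, a bHLH-PAS protein that binds the hormone, lay between 18.2 and 35.1 CPM over 18 libraries of females and between 28.0 and 60.4 CPM over 18 of males. Exposed and air libraries of Met overlapped in all 6 comparisons, with log2 fold changes from -0.38 to 0.22 and no adjusted p under 0.784. Without the mixed libraries Met stood at -0.21 in place of -0.05 in females of day 2 and at 0.03 in place of -0.02 in males. Its paralogue gce had 31.3, 33.7 and 21.5 CPM in exposed males of day 2, against 44.1, 48.2 and 48.7 CPM in air males. Every exposed library was below every air library, and the lowest value belonged to the mixed library. Scaled over all 36 libraries it was 21.4 CPM, within the 16.5 to 42.5 CPM of the 17 unmixed female libraries. The 17 unmixed male libraries had at least 32.2 CPM. The log2 fold change of gce was -0.70 ± 0.23 (SE; adjusted p = 0.102 by edgeR and 0.0412 by DESeq2), or -0.53 (adjusted p = 0.600) without the mixed libraries. In the other 5 comparisons gce lay between -0.41 and 0.15 with overlapping groups, and the -0.41 of females of day 2 was -0.68 without the mixed library.

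Kr-h1, the zinc finger transcription factor induced by Met and gce, had a lower mean in exposed than in air flies in all 6 comparisons. No difference passed the threshold on its own. On day 1, Kr-h1 had 27.5, 42.0 and 20.7 CPM in exposed females and 46.1, 44.6 and 11.2 CPM in air females, and the log2 fold change was -0.18 ± 0.54 (SE; adjusted p = 0.941). Leaving out replicate 1 or 2 of the air females, or replicate 3 of the exposed females, turned that sign (0.11, 0.07 and 0.03). On day 2 the exposed females had 26.4, 10.5 and 7.92 CPM, the first being the mixed library, and the air females 79.1, 25.0 and 20.1 CPM. The exposed mixed library and replicate 1 of the air females each stood above the other libraries of their group. The log2 fold change was -1.46 ± 0.56 (SE; adjusted p = 0.415), -2.15 (adjusted p = 0.168) without the mixed libraries and -0.59 (adjusted p = 0.945) without replicate 1 of the air females. On day 7 the exposed females had 12.3, 20.5 and 16.9 CPM, all below the 28.8, 36.2 and 43.0 CPM of the air females. That difference was -1.12 ± 0.55 on the log2 scale (SE; adjusted p above 0.999).

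Air males had higher Kr-h1 than air females (tests of sex are given with the air flies), and the exposed mean was again the lower one on each day. On day 1, Kr-h1 had 169, 66.2 and 110.2 CPM in exposed males and 98.6, 199 and 164 CPM in air males, with overlapping groups and a log2 fold change of -0.42 ± 0.41 (SE). On day 2 the exposed males had 85.9, 56.7 and 20.1 CPM, the last being the mixed library, against 140.0, 215 and 156 CPM in air males. All exposed libraries were lower than all air libraries, also without the mixed one. The log2 fold change was -1.65 ± 0.42 (SE; adjusted p = 0.0782 by edgeR), and DESeq2 gave an adjusted p of 0.00619. Without the mixed libraries the edgeR value was -1.26 (adjusted p = 0.390). Leaving out 1 library at a time gave -2.15 to -1.26, past the threshold without replicate 1 (adjusted p = 0.00426) or replicate 2 (0.0433) of the exposed males. Both of these fits kept the mixed library, and the -1.26 came from the fit without it. Day 7 levels were 81.3, 81.7 and 60.9 CPM in exposed males and 124, 87.5 and 128 CPM in air males. These did not overlap either, and the log2 fold change was -0.60 ± 0.41 (SE; adjusted p above 0.999).

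**Figure D2:**
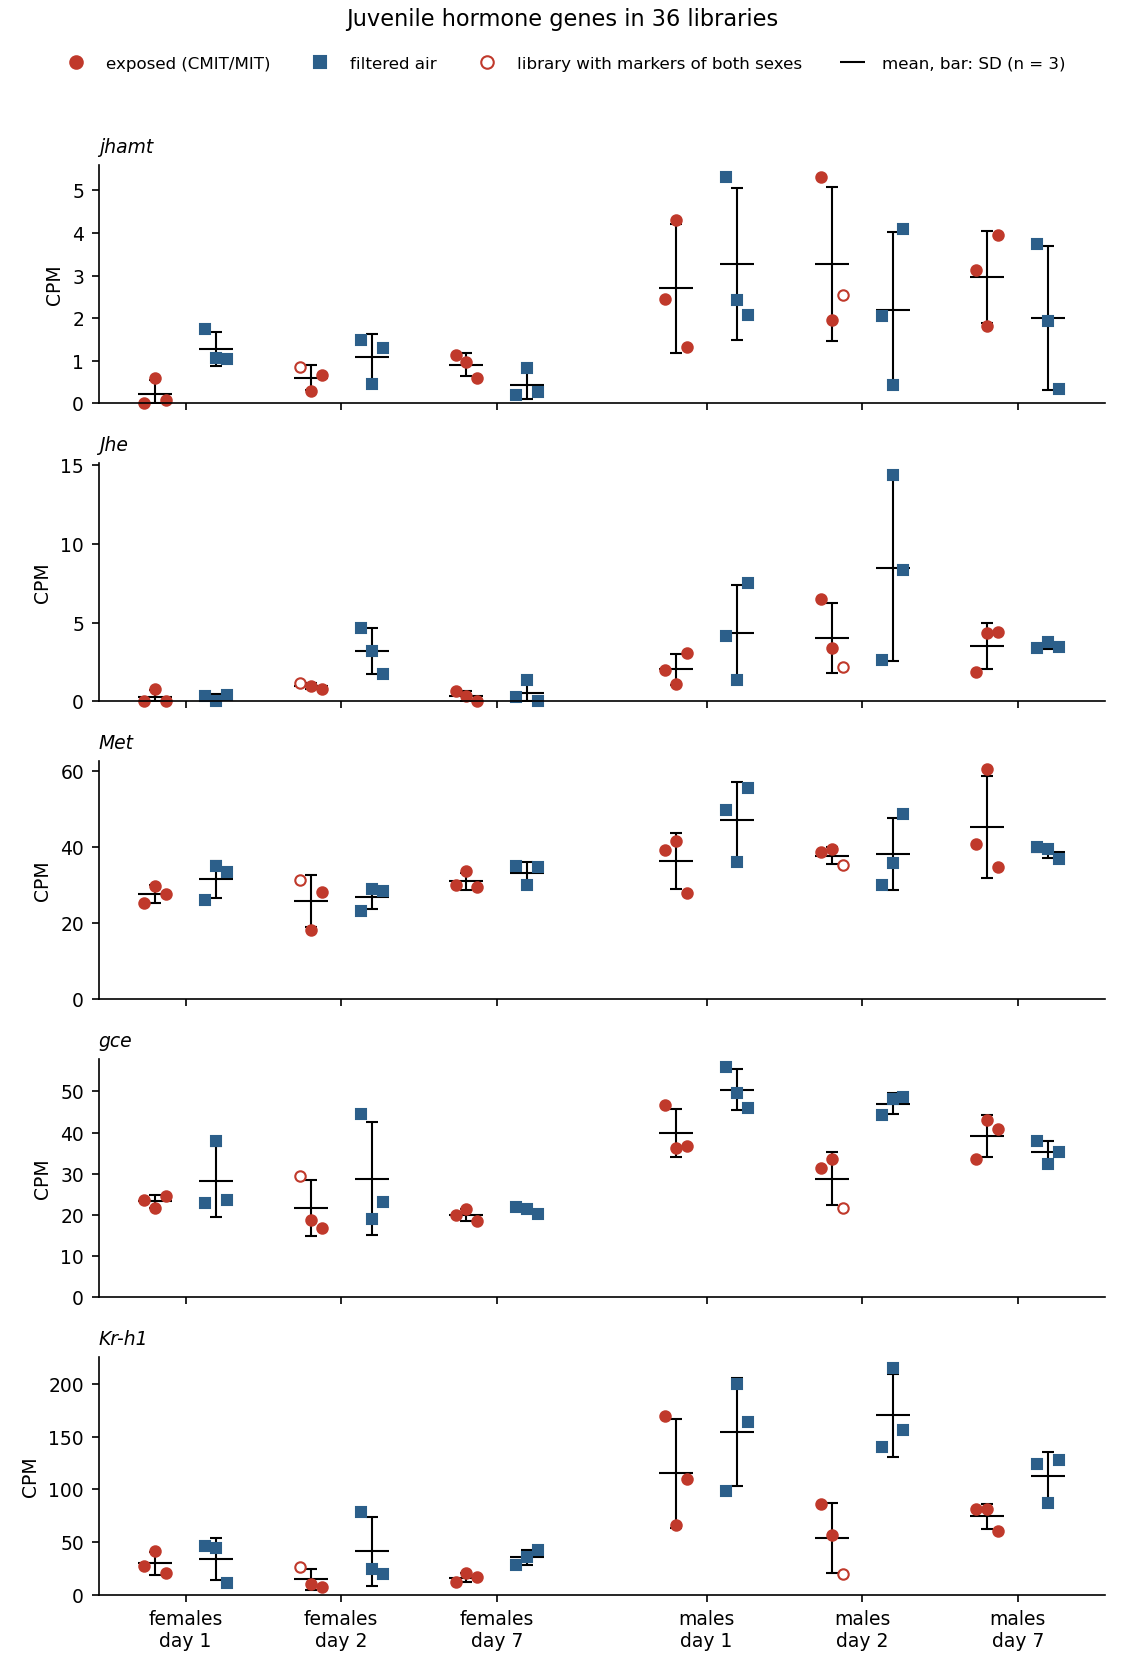
CPM within each sex (y axis, linear, from 0) is plotted for each of the 5 juvenile hormone genes in every library, by sex and day on the x axis, with exposed flies (red circles) left of air flies (blue squares), bars of mean and SD cut at 0, and open circles for the mixed libraries. Kr-h1 of the exposed group lies wholly below the air group in females of day 7 and males of days 2 and 7.

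Averaged over the 3 days, a contrast added after the values of the members had been seen, the exposure effect on Kr-h1 was -0.92 ± 0.32 in females (SE; adjusted p = 0.428) and -0.89 ± 0.24 in males (SE; adjusted p = 0.565), both by edgeR, which called 0 of the members in either sex (0.212% of all genes in females and 0% in males). At an unadjusted p below 0.05 there were 1 in females (6.81% of all genes) and 3 in males (8.67%), and DESeq2 called 0 in each (0.92% and 0%). Over both sexes it was -0.89 ± 0.22 (SE; adjusted p = 0.156), which is 54.0% of the air level. This joint contrast called 0 of the 10 genes with edgeR and 0.0151% of all genes. Its 3 genes at an unadjusted p below 0.05 (9.78% of all genes) were Kr-h1, Eip75B at -0.27 (adjusted p = 0.366) and gce at -0.27 (adjusted p = 0.431), all lower in exposed flies. DESeq2 called Kr-h1 (adjusted p = 0.0140) and no other member there, and 1.19% of all genes. Without the mixed libraries edgeR called it too, at -0.97 (adjusted p = 0.0169), with 0.418% of all genes. Leaving out 1 library at a time kept the sign in 36 of 36 fits, with -1.03 to -0.75, and passed the threshold in 2 of them, without replicate 1 of the exposed males of day 2 (adjusted p = 0.0484) and without the mixed female library (0.0276). Whether the effect on Kr-h1 differed between days was tested and missed the threshold in females (adjusted p = 0.714) and males (0.661), as did its difference between females and males on each day (adjusted p of 0.804 or more).

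**Figure D3:**
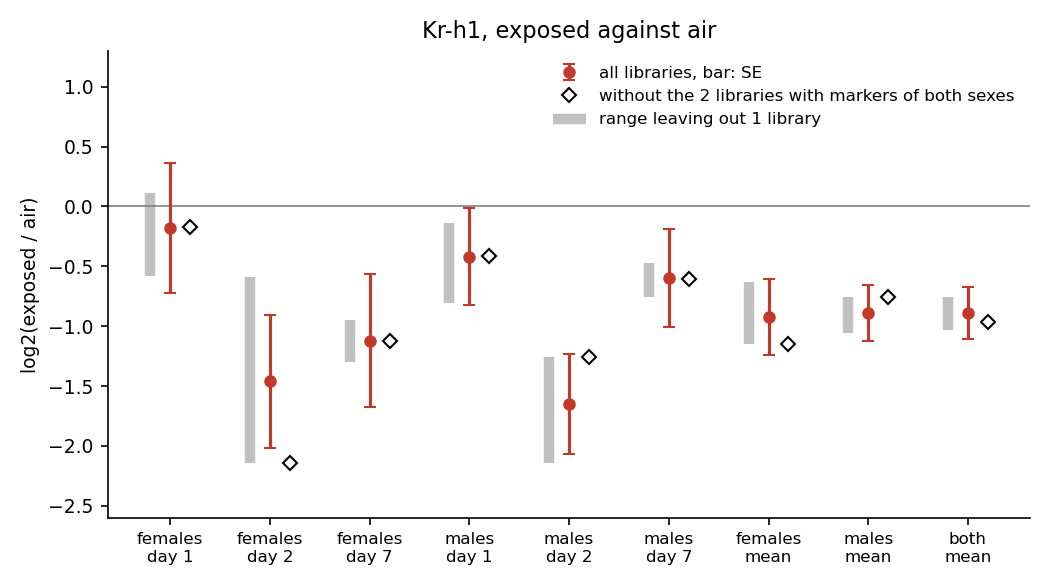
The log2 fold change of Kr-h1, exposed over air (y axis), is plotted for each sex and day and for the means over days, with all libraries (red, bar of 1 SE), without the mixed libraries (open diamonds) and as the range over fits that leave out 1 library (grey). Only the range of females of day 1 crosses 0, and the joint mean stays between -1.03 and -0.75 in its leave-out fits.

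The summed level of egg genes was lower in exposed than in air females of day 2. The ovary, eggshell and yolk list, of which 20 of 20 genes were detected in every female group, summed to 11441 to 20446 CPM in exposed females of day 2, against 42567 to 67726 CPM in air females, and the mixed library held the highest of the exposed sums. Of these 20 genes 7 fell there by edgeR (0.455% of all genes passed), 10 passed by DESeq2 (1.25% of all genes) and 6 by edgeR without the mixed library (0.563%). Among the 7 were Cp7Fb at -5.08, Cp18 at -5.38 and Cp36 at -5.51 on the log2 scale, which encode eggshell proteins, and the yolk protein gene Yp2 at -1.93 (adjusted p = 0.000126, 0.000363, 0.00807 and 0.00807, edgeR). Without the mixed library these stood at -5.96, -5.12, -5.10 and -2.21. The fall did not extend to the whole list. Its germline and oocyte genes vas, osk, nos, yl, bam and dhd stood at 0.69, 0.32, 0.19, 0.12, 0.005 and -0.55. None of them passed (adjusted p of 0.288 or more, edgeR). Without the mixed library they stood at 0.93, 0.51, 0.37, 0.20, 0.04 and -0.53. In females of day 7, where Kr-h1 of all exposed libraries lay below that of all air libraries, the list summed to 44712 to 59366 CPM in exposed and 44055 to 49596 CPM in air females, with overlap, a median log2 fold change of -0.01 and 0 of 20 genes past the threshold (0.0101% of all genes). In exposed males of day 2 the same list summed to 44.8, 352 and 24581 CPM, the last in the mixed library, against at most 169 CPM in air males, where osk and bam were at 0.

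Apart from the egg genes of females of day 2 and the sums listed next, all marker sums overlapped between exposed and air libraries. Of all genes tested 8.6% to 17.3% did not overlap, depending on the comparison. The share for sums of genes was not determined. Sums without overlap were as follows. Midgut proteases (4 of 4 detected) summed to 557 to 764 CPM in exposed females of day 1, against 1970 to 3677 CPM in air females, to 1790 to 2219 against 684 to 1603 CPM in females of day 7, and to 3685 to 4303 against 4639 to 7697 CPM in males of day 7. Neuronal genes (4 of 4 detected) summed to 94.2 to 159 CPM in exposed females of day 1, against 69.4 to 78.2 CPM in air females, to 71.5 to 110 against 44.7 to 59.1 CPM in females of day 2, and to 416 to 470 against 303 to 415 CPM in males of day 7. Fat body genes (4, with Fbp1 at 0 in the exposed group) summed to 729 to 965 CPM in exposed females of day 1, against 1069 to 1558 CPM in air females. The female sex markers Yp1, Yp2 and dhd summed to 13857 to 14720 against 15806 to 22038 CPM in females of day 1, to 9045 to 13675 against 21598 to 40022 CPM in females of day 2, and to 17.5 to 43.1 against 2.12 to 13.5 CPM in males of day 1. The male markers roX1, roX2 and SP summed to 965 to 5537 CPM in exposed males of day 2, against 6316 to 8513 CPM in air males. Without the mixed libraries the day 2 sums of exposed flies ended at 90.3 CPM for neuronal genes and at 12966 CPM for the female markers in females, and began at 3544 CPM for the male markers in males. The list of testis genes, bam, twe, Mst98Ca and dj, overlapped in all 6 comparisons. Its sum does not measure testis alone. Between air females and air males bam and twe were higher in females (7.31 and 1.48 on the log2 scale, DESeq2 size factors). Mst98Ca and dj were lower there (-10.5 and -11.2). The part of the shifts between exposed and air flies in the levels of the hormone genes was not tested, and in whole flies fewer cells of a type and less RNA per cell cannot be told apart.

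Among the ecdysone genes, shd, the P450 that makes the active steroid, was the sparsest, with 52 counts in the 18 female and 122 in the 18 male libraries. It had 3 or fewer counts in 11 female and 7 male libraries. Exposed males of day 1 had 1.06, 0.845 and 0 CPM and air males 0, 0 and 0.485 CPM, and on day 7 a single exposed library reached 4.54 CPM beside 0.196 and 0.120 CPM in the others, against 1.17, 0.967 and 1.37 CPM in air males. On day 2 the log2 fold change was -0.03 in males, and 0.23 without the mixed library. No difference in shd was detectable at this depth.

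The receptor subunit EcR, the steroid-binding member of the pair, had 63.4, 48.3 and 55.8 CPM in exposed females of day 1, against 42.7, 42.5 and 41.0 CPM in air females. The groups did not overlap, and the log2 fold change was 0.41 ± 0.19 (SE; adjusted p = 0.368). On day 7 the order was the other way, with 38.0, 47.2 and 47.3 CPM in exposed females and 48.6, 51.8 and 61.2 CPM in air females (-0.29 ± 0.19, SE), again without overlap and without passing the threshold. The day 1 effect on EcR in females exceeded that in males by 0.84 ± 0.40 (SE; adjusted p = 0.598). In males of day 2, EcR had 17.3, 18.1 and 46.3 CPM in exposed flies and 18, 25.7 and 21.3 CPM in air flies. The high value belonged to the mixed library. Scaled over all 36 libraries it was 46.1 CPM, within the 30.6 to 60.4 CPM of the 17 female libraries that were not mixed. Without that library the log2 fold change of EcR turned, at -0.29 in place of 0.33. In females of day 2 EcR stood at 0.07, and at 0.13 without the mixed library.

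The partner subunit usp, the fly orthologue of the vertebrate retinoid X receptors, overlapped between exposed and air flies in all 6 comparisons, with log2 fold changes from -0.72 to 0.61. Its exposed males of day 2 had 8.76, 15.7 and 37.5 CPM, against 13.0, 17.8 and 9.74 CPM in air males. There too the mixed library was the high one, and without it the value was -0.14 in place of 0.61. In females of day 2, usp had 33.1, 37.5 and 39.4 CPM in exposed flies and 15.0, 47.7 and 60.3 CPM in air flies (-0.17 on the log2 scale, and -0.09 without the mixed library). The low air value was in replicate 1, the library that had the highest Kr-h1 and gce of the female libraries.

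The early gene Eip74EF, an ETS-domain transcription factor, had 6.93, 7.69 and 6.18 CPM in exposed females of day 1, against 3.15, 0.229 and 4.69 CPM in air females. On day 2 the order was reversed, with 4.83, 6.71 and 3.86 CPM in exposed and 12.7, 7.94 and 9.25 CPM in air females. The groups did not overlap on either day. The log2 fold changes were 1.38 ± 0.56 on day 1 (SE; adjusted p = 0.289) and -0.95 ± 0.54 on day 2 (SE; adjusted p = 0.629), or -0.90 (adjusted p = 0.705) without the mixed library. In males of day 2 Eip74EF stood at -0.15, and at 0.04 without the mixed library. On day 7 exposed females had 10.6, 8.08 and 10.2 CPM and air females 9.84, 10.1 and 8.75 CPM, a difference of 0.01 ± 0.54 (SE). The test of a difference among the 3 daily effects gave an adjusted p of 0.377 for Eip74EF in females.

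Eip75B, a nuclear receptor that binds haem and represses other ecdysone targets, had the most counts of the 10 genes, 40632. Its mean was lower in exposed flies in 5 of 6 comparisons. In females of day 1 it had 75.5, 60.9 and 45.3 CPM in exposed flies and 43.7, 45.6 and 57.6 CPM in air flies, which overlapped. On day 2 the exposed females had 62.1, 65.3 and 56.4 CPM, all below the 70.6, 83.4 and 90.6 CPM of air females. On day 7 they had 61.8, 86.5 and 69.9 CPM, again all below the 103, 95.3 and 96.6 CPM of air females. The log2 fold changes were 0.31 ± 0.19, -0.41 ± 0.19 (adjusted p = 0.510) and -0.43 ± 0.19 (adjusted p above 0.999) on days 1, 2 and 7 (SE). The test of a difference among these effects gave an adjusted p of 0.339. Without the mixed library the day 2 value was again -0.41 (adjusted p = 0.616). In males the groups overlapped on every day, with -0.41, -0.35 and -0.29, and the -0.35 of day 2 was -0.16 without the mixed library.

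**Figure D4:**
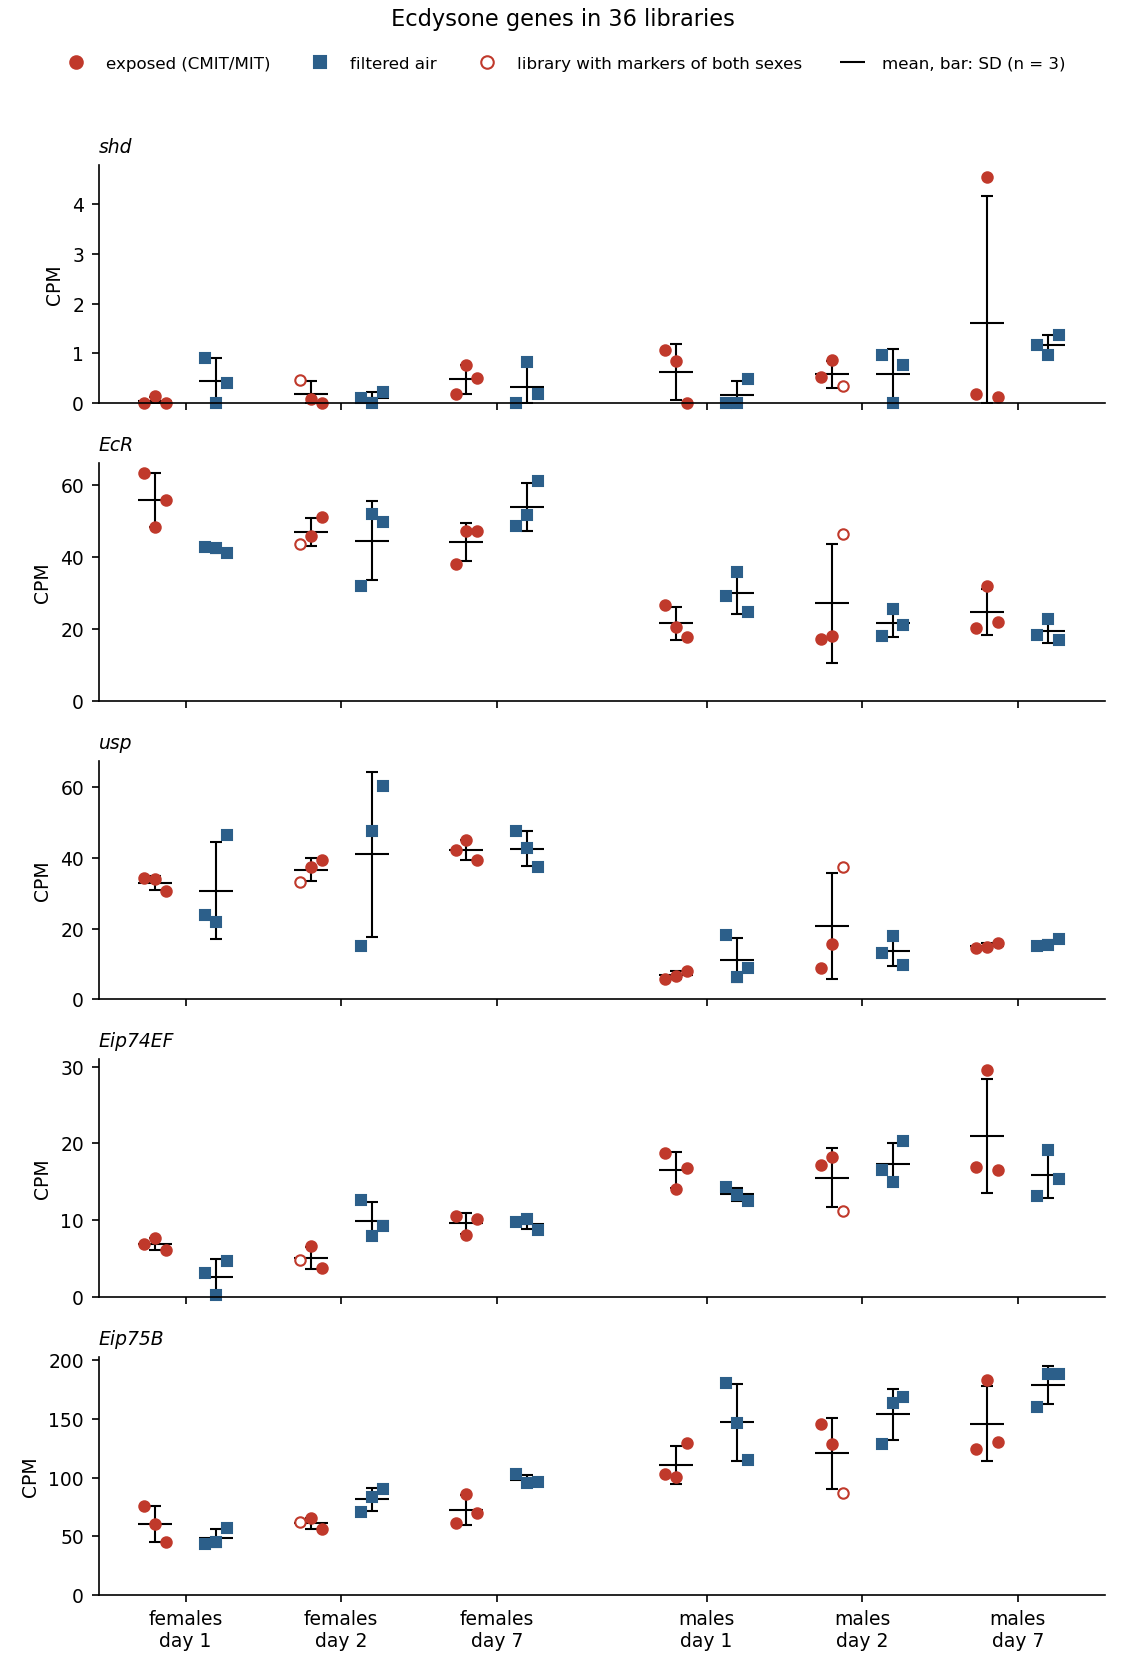
CPM within each sex (y axis, linear, from 0) is plotted for each of the 5 ecdysone genes in every library, by sex and day on the x axis, with exposed flies (red circles) left of air flies (blue squares), bars of mean and SD cut at 0, and open circles for the mixed libraries. In females Eip74EF of exposed flies lies above air flies on day 1 and below them on day 2, and in males of day 2 the mixed library holds the highest EcR and usp of its group.

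In none of the 10 genes did the exposure effect differ over days or between the sexes past the threshold. The test over days called 0 of 9 in females (0.445% of all genes) and 0 of 10 in males (0% of all genes), with 2 and 0 at an unadjusted p below 0.05 (10.7% and 7.65% of all genes) by edgeR and 0 by DESeq2 in each (2.48% and 0.0155% of all genes). The difference between females and males called 0 of 10 on days 1, 2 and 7 (0.0151%, 12.2% and 0% of all genes), with 2, 0 and 0 at an unadjusted p below 0.05 (8.04%, 28.7% and 1.33%) and 0 by DESeq2 (0.944%, 14.9% and 0.279%). The 12.2% of day 2 includes both mixed libraries and was 0.0808% without them.

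Filtered-air flies alone showed how these genes differ by sex. With TMM over all 36 libraries, 9 of 10 genes differed between air females and air males, where 86.7% of all genes did (87.1% at an unadjusted p below 0.05), so the count is near the background (DESeq2 also called 9, and 86.9% of all genes). Of all genes 35.9% were higher and 50.7% lower in females, and the median gene stood at -0.69 on the log2 scale (-1.06 with the size factors of DESeq2). Differences of the 10 genes are therefore also given relative to that median, and these values moved by at most 0.03 between the 2 scalings. A change of scaling moves all genes by nearly the same amount, so this small movement follows largely from taking off the median.

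The higher genes in females were both subunits of the ecdysone receptor. EcR lay between 30.6 and 60.4 CPM (median 47.8) over the 9 libraries of air females and between 17.5 and 36.7 CPM (median 23.5) over the 9 of air males. Its log2 difference was 0.92 ± 0.16 (SE; adjusted p = 7.91e-06, edgeR), or 1.61 above the median gene. For usp the air females ranged from 14.3 to 64.2 CPM (median 41.6) and the air males from 6.51 to 18.5 CPM (median 15.6), a difference of 1.43 ± 0.25 (SE; adjusted p = 7.70e-06), or 2.11 above the median gene. Both ranges overlapped between the sexes in single libraries.

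The other 7 genes called were lower in females. Kr-h1 ranged from 10.7 to 75.6 CPM (median 35.2) in air females and from 89.7 to 222 CPM (median 148) in air males, with no overlap. Its log2 difference was -2.06 ± 0.32 (SE; adjusted p = 9.57e-07), or -1.37 relative to the median gene. The early genes Eip75B and Eip74EF did not overlap between the sexes either. The share of all genes without overlap between air females and air males was not determined. The lack of overlap in Kr-h1, Eip75B and Eip74EF therefore does not set them apart from other genes. Eip75B ranged from 38.7 to 101 CPM in air females and from 118 to 194 CPM in air males (-1.20 ± 0.13, SE; adjusted p = 4.02e-09). Relative to the median gene it stood at -0.52. Eip74EF ranged from 0.216 to 12.1 CPM in air females and from 12.9 to 21.2 CPM in air males (-1.37 ± 0.27, SE; adjusted p = 2.98e-05), or -0.68 relative to the median gene. Jhe at -2.82 ± 0.63 and jhamt at -1.60 ± 0.51 (SE; adjusted p = 0.000162 and 0.00501) were also lower in females, and stood at -2.13 and -0.91 relative to the median gene. Of the hormone receptors, gce at -0.85 ± 0.16 and Met at -0.52 ± 0.14 (SE; adjusted p = 1.46e-05 and 0.00146) were lower too, but stood at -0.16 and 0.17 relative to the median gene on the log2 scale. The remaining gene, shd, was at -0.98 ± 0.92 (SE; adjusted p = 0.317), or -0.29 relative to the median gene.

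**Figure D5:**
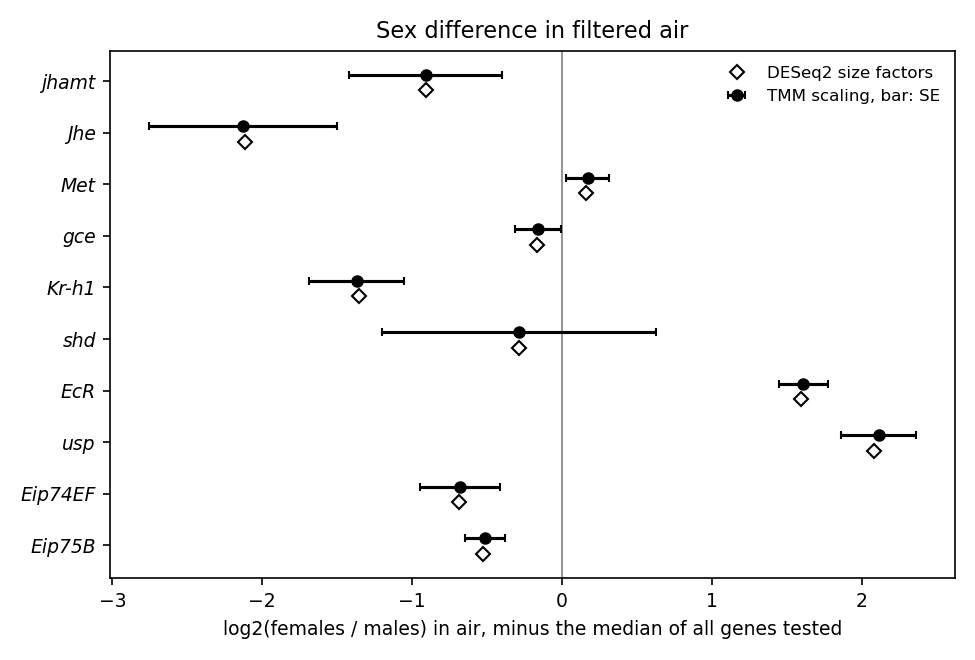
The log2 difference of air females over air males, less the median of all genes tested (x axis), is plotted for each gene (y axis) with TMM scaling (black, bar of 1 SE) and with DESeq2 size factors (open diamonds). EcR and usp stand 1.61 and 2.11 above the median gene, and Kr-h1 and Jhe at -1.37 and -2.13 relative to it. Both scalings give nearly the same place, since taking off the median removes nearly all of a change of scaling.

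Over the 12 groups the levels of each gene ran in a nearly continuous order. Neighbouring groups in that order overlapped in all 11 steps for jhamt, Jhe, Met, gce and shd, in 10 for Kr-h1, EcR, usp and Eip75B and in 9 for Eip74EF. For Kr-h1, scaled over all 36 libraries, the 6 female groups came first, from 15.8 ± 4.06 CPM (SD, n = 3) in exposed females of day 7 to 40.7 ± 30.3 CPM in air females of day 2. The male groups followed, from 55.7 ± 34.4 CPM in exposed males of day 2 to 177 ± 39.3 CPM in air males of the same day, and the step without overlap was that from exposed to air males of day 7. Eip75B ran in the same way from 45.6 ± 8.45 CPM in air females of day 1 to 184 ± 16.1 CPM in air males of day 7 (SD, n = 3), with its gap between the sexes.

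Time alone was examined in air flies between day 7 and day 1. In females 0 of 9 genes passed (0% of all genes), 2 had an unadjusted p below 0.05 (9.62% of all genes), and DESeq2 called 2 (1.21% of all genes). Both were early ecdysone genes with higher levels on day 7. Eip75B had 103, 95.3 and 96.6 CPM on day 7 and 43.7, 45.6 and 57.6 CPM on day 1, with no overlap. Its log2 difference was 1.01 ± 0.19 (SE; adjusted p = 0.0668 by edgeR and 0.000810 by DESeq2), and fits without replicate 3 of the air or of the exposed females of day 1, or without replicate 1 of the air females of day 2, passed the threshold (adjusted p = 0.0297, 0.0420 and 0.00893). Eip74EF had 9.84, 10.1 and 8.75 CPM on day 7 and 3.15, 0.229 and 4.69 CPM on day 1, with a log2 difference of 1.85 ± 0.57 (SE; adjusted p = 0.256 by edgeR and 0.0375 by DESeq2). Day 7 and day 1 did not overlap for 5 of 9 genes in females (22.5% of all genes) and 3 of 10 in males (26% of all genes). In males 0 of 10 passed by edgeR (0.0699% of all genes) and 0 by DESeq2 (0.971% of all genes), and 1, gce at -0.52 ± 0.23 (SE; adjusted p = 0.528), had an unadjusted p below 0.05 (8.8% of all genes). These air groups are the same that the exposed flies of days 1 and 7 were compared with.

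The wider pathways were read from 4 further lists. None of their genes passed the threshold between exposed and air flies in any of the 6 comparisons by edgeR, in 339 tests. These count tai and br, which are in both response lists, once for each list, as do the later counts. At an unadjusted p below 0.05 there were 8, 5 and 1 of 57 in females of days 1, 2 and 7 (12.7%, 9.52% and 3.28% of all genes) and 3, 12 and 4 of 56 in males (3.17%, 21.8% and 0.932%). The lists held 14 genes of juvenile hormone synthesis and its regulation, 12 of its breakdown, binding and response, 16 of ecdysone synthesis, breakdown and transport, and 24 receptor partners and response genes. Their median log2 fold changes lay between -0.25 and 0.21. DESeq2 called 1 of 57 in females of day 1 (2.76% of all genes), 4 of 56 in males of day 2 (6.72%) and 0 in the other 4 comparisons. They were ImpL2, a secreted insulin-binding protein, at -1.08 in females of day 1 (adjusted p = 0.00412), and in males of day 2 Hr38 at -1.48 (0.0121), Npc1a at -0.83 (0.0354), rig at 2.15 (0.0396) and Fkbp39 at 2.55 (0.0285). By edgeR the same 5 genes had adjusted p from 0.0600 to 0.120. The mixed library was the high one in rig, with 31.1 CPM beside 3.75 and 4.57 CPM in the other exposed males, against 1.72 to 4.54 CPM in air males. In Fkbp39 it had 275 CPM beside 13.4 and 25.8 CPM, against 17.8 to 19.1 CPM in air males. Without it the edgeR values of males of day 2 were 0.45 for rig, 0.07 for Fkbp39, -1.14 for Hr38 and -0.54 for Npc1a (adjusted p of 0.477 or more).

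Between air females and air males 86.7% of all genes passed, 35.9% higher and 50.7% lower in females. The 4 lists, in the order given above, had 12 of 13, 10 of 12, 11 of 14 and 18 of 22 past the threshold. These totals were near the share of all genes. The synthesis and regulation list of juvenile hormone had 2 genes higher and 10 lower in females of 13 tested (median -2.00, against -0.69 over all genes). Pmvk at 1.52 and Fpps at 0.94, enzymes of the isoprenoid pathway, were the higher ones. Among the lower were the neuropeptide genes AstA at -2.03 and AstC at -1.95, and the AstA receptor gene AstA-R1 at -2.41. Breakdown, binding and response genes gave 4 higher and 6 lower of 12 (median -0.38). Fkbp39 at 3.51, JhI-1 at 3.27, JhI-21 at 1.75 and the chaperone gene Hsp83 at 1.04 were the higher ones. JhI-26 at -2.11, the epoxide hydrolase genes Jheh1 at -1.87 and Jheh2 at -0.74, and the coactivator gene tai at -1.26 were among the lower. Relative to the median gene they stood at -1.42, -1.18, -0.05 and -0.57, so Jheh2 lay near it.

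Ecdysone synthesis, breakdown and transport gave 9 higher and 2 lower of 14 (median 1.39, against -0.69 over all genes, of which 35.9% were higher and 50.7% lower). The higher ones included E23, an ABC transporter gene, at 3.16, Start1 at 2.00 and the early synthesis genes nvd at 3.47 and spo at 5.05. The lower ones were the sterol transport gene Npc1a at -1.29 and the ecdysone importer gene EcI at -0.59. Relative to the median gene they stood at -0.60 and 0.10, so EcI was not lower by that measure. Receptor partners and response genes gave 5 higher and 13 lower of 22 (median -1.61). The higher ones were rig at 2.72, Eip71CD at 1.33, the nuclear receptor gene Hr39 at 1.02, Eip55E at 0.70 and the corepressor gene Smr at 0.37. Among the lower were Blimp-1 at -2.13, Eip93F at -1.76, Eip63F-1 at -1.71 and ImpL2 at -1.70. All values named here had adjusted p of 0.00303 or less by edgeR. With size factors in place of TMM the counts in the 4 lists were 2 and 10, 4 and 7, 8 and 2, and 4 and 14, and Smr no longer passed (-0.01, adjusted p = 0.919). Smr lay above the median gene in both scalings. It stood at 1.06 relative to that gene with TMM, and at -0.01 against a median of -1.06 with size factors.

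Genes with a course most like that of Kr-h1 were sought among the libraries that were not mixed. By Pearson's r of log2 CPM over 17 female libraries they were CG12581 (r = 0.853), Dad (0.830) and Fas3 (0.828), and over 17 male libraries Pgant9 (0.923), Adh (0.884) and Plc21C (0.883). Of the other members gce came closest, with r = 0.659 in females, where it ranked 126 of 9892 genes, and r = 0.606 in males, where it ranked 378 of 12870. Met had r = 0.121 in females and -0.08 in males, and usp -0.62 in females and -0.28 in males. Spearman's rank correlation gave 0.547 and 0.645 for gce and -0.510 and -0.221 for usp, in females and males. The female libraries include replicate 1 of the air females of day 2, which had the highest Kr-h1 and gce among them. Its weight in these values was not tested. These values describe libraries that share days, treatments and depth, and no p-value is attached to them.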

How the data were processed

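Per the labels' protocols, QuantSeq 3′ end libraries were made from Trizol-extracted RNA of whole flies. The submitters' processing notes name fastp, STAR, HTSeq and the build dm6. For versions, annotation release and strand setting, the sources used here give nothing. The authors deposited unnormalized read counts of genes for 36 libraries, and 1 unnamed row per file, with at most 0.000107% of the counts, was left out.

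Counts were tested with edgeR 4.0.16 (R 4.3.3), with TMM scaling, filterByExpr at a minimum count of 10, quasi-likelihood F tests, Benjamini-Hochberg adjustment over all genes and a threshold of 0.05. Exposure and time were fitted within each sex (18 libraries), sex comparisons over all 36. SE is the log2 fold change divided by the square root of F. DESeq2 1.42.0, other filters, scalings and sets of libraries were alternatives, and the procedure was tested on simulated counts.

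All 10 members are named. Of the pathway lists, all genes past the threshold were named where 5 or fewer passed in a direction, otherwise up to the 4 with the smallest p; 1 gene that this rule named is not reported here. Genes called by DESeq2 alone, and the germline and oocyte genes of the egg list, were named after their values were seen. The members and lists were chosen with earlier results of these data known. Mixed libraries have over 100 CPM of roX1 and 1000 CPM of Yp1, a rule chosen with the data in view. Promoter and protein sequences were not analysed here.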

Additional observations from a re-analysis of the deposited data

How the results depend on the processing

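No exposure comparison called a member in the fit reported, and the alternatives changed that as follows. Members called in males of day 2 were 2 with DESeq2, 1 without a low-count filter, 1 when all 36 libraries were fitted and 0 to 2 when each library was left out. The replicate block called 1 member, Kr-h1, in females of day 2 (-1.39, adjusted p = 0.0328) and 0 in the other 5 comparisons. The labels do not say that equal replicate numbers pair libraries. Deviations of same-numbered exposed and air libraries gave 18 correlations from -0.07 to 0.23. Of these, 4 were over 0.1, all on day 2. The unlike pair of exposed replicate 3 and air replicate 2 reached 0.29 in females of that day. With 3 libraries per group these values cannot decide whether libraries of day 2 were paired. The threshold of the series text, over 1.5-fold with an unadjusted p below 0.05, called 2 members in females of day 1, 1 in females of day 2 and 2 in males of day 2. Day 7 against day 1 in air females gave 2 members with DESeq2, 1 without a filter and 0 to 1 in leave-outs. The effect averaged over days gave 0 to 1 member in leave-outs of males, and over both sexes 1 with DESeq2, 1 without the mixed libraries and 0 to 1 in leave-outs. The cause of these changes was not tested. No called value changed sign, and of 780 alternative values of the exposure effects 50 changed sign, none past the threshold, with 8 for each of Jhe, Met, shd, usp and Eip74EF, 3 for Kr-h1 and 0 for Eip75B. With size factors in place of TMM the median gene shifted by -0.37 between the sexes in air and by 0.17 in the sex difference of the day 2 effect. Depth limits jhamt, Jhe and shd most.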

Other observations

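Replicate 1 of the air females of day 2 stood apart from the other libraries of its group in several hormone genes. It had 79.1 CPM of Kr-h1, against 25.0 and 20.1 CPM in replicates 2 and 3, and 44.4 CPM of gce, against 18.9 and 23.1 CPM. Its usp was 15.0 CPM, against 47.7 and 60.3 CPM, and its EcR 32.0 CPM, against 52.0 and 49.7 CPM. Its ovary, eggshell and yolk genes summed to 67726 CPM, against 44029 and 42567 CPM, and its fat body genes to 2772 CPM, against 1002 and 960 CPM. The library was not among those with markers of both sexes.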
